A study of Homo sapiens with 192 samples.

Results

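The Philadelphia translocation joins the long arm of chromosome 9, from a break within ABL1 to its end, to chromosome 22 within BCR. Accessible DNA of the affected stretches was described here in 3 segments, chosen by position alone on hg38. The chr9 distal segment holds features of chromosome 9 that start at or above 130700000. The chr22 proximal segment holds features of chromosome 22 that start below 23300000, and the chr22 distal segment holds those from there on. They had 66, 83 and 390 features, which is 539 of the 80971 features in all (0.666%). Chromosome 9 below the cut (chr9 proximal, 3082 features) was the comparison.

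The data were plate-based snATAC-seq, in which a transposase tags open DNA of nuclei in bulk before each nucleus goes to a well with its own index. All cells were HAP1, 96 on each of 2 plates, and no treatment, time point or separate culture was named, so a plate counted as 1 sample and no test was made. CASB-labeled and unlabeled cells (coated or not with barcode DNA through concanavalin A) were pooled before tagging, and the label of a given cell was not used here. With the cutoff of the authors, 83 cells of plate 1 and 79 of plate 2 had more than 300 peaks and are called passing cells.

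HAP1 is a near-haploid adherent line derived from KBM-7, a chronic myeloid leukemia line that carries the translocation. The exchange gives a shortened chromosome 22, the Philadelphia chromosome, and a derivative chromosome 9. Taken by the cuts, the Philadelphia chromosome carries the chr22 proximal segment followed by the chr9 distal segment. The derivative chromosome 9 carries chr9 proximal followed by the chr22 distal segment. On the Philadelphia chromosome the promoter and first exons of BCR are fused to the kinase-coding exons of ABL1, and the BCR-ABL1 protein is a constantly active tyrosine kinase. Counts in called features hold no reads across the junction, so the label of the segments could not be checked against the data. The cuts are positions of the rule, not mapped breakpoints. The start of ABL1 (chr9:130713043) lies after the cut and so was counted in chr9 distal. A break within ABL1 can leave that start on the derivative chromosome 9, and its side in HAP1 was not mapped. Fewer copies of a segment and less accessible DNA per copy cannot be told apart in these counts.

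The following sequences are shown because ABL1 and BCR are the fused genes and because the others mark the promoter feature seen in most passing cells of each segment and the feature seen in most passing cells of all 3. Except for the last, they span the summit of a feature on the plus strand of hg38. Their names give the place of the whole feature, so a stretch need not hold the start or exon named. The start of ABL1 (chr9:130713043) lies outside its stretch. The last is the promoter of BCR from RefSeq (GRCh38.p14, plus strand), in which no feature lay. Capitals mark matches to the motifs that were searched, on either strand.
ABL1 start, chr9:130712549-130712749: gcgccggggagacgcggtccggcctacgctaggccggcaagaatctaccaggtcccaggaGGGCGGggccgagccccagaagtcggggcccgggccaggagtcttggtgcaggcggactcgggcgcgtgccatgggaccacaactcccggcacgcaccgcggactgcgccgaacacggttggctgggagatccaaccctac
BCR exon, chr22:23243049-23243249: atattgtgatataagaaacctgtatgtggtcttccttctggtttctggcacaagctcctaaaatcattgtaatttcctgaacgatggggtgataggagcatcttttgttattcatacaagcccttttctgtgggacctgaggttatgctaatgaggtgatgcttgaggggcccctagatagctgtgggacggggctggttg
NTNG2 start, chr9:132241292-132241492: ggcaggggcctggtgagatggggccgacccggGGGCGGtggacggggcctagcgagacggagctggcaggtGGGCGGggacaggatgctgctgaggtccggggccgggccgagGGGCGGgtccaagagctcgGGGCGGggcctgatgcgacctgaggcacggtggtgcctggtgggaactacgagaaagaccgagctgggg
BCL2L13 start, chr22:17638749-17638949: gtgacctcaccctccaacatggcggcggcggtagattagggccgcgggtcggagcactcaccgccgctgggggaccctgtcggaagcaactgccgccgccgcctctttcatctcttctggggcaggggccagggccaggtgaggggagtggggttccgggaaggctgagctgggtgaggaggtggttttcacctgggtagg
TRIOBP start, chr22:37696784-37696984: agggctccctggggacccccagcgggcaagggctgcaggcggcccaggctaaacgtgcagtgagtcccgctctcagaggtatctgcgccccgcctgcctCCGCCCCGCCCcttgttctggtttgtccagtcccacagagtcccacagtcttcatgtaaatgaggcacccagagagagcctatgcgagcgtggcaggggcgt
Feature outside genes near RPL3, chr22:39311013-39311213: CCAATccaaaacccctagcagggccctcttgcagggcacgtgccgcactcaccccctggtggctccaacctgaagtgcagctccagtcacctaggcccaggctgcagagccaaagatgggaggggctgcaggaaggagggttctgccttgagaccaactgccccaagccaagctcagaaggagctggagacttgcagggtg
BCR promoter, chr22:23180259-23180558: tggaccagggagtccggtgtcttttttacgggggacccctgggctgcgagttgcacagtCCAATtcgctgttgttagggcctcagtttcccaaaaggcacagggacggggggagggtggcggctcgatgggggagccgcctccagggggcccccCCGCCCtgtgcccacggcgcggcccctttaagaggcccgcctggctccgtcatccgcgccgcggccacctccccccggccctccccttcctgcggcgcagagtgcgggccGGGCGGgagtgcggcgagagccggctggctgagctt

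The stretch from the feature over the start of ABL1 was 71.6% GC and held 1 match to GGGCGG, the core of the GC box bound by Sp factors. The stretch at NTNG2 held 4 such matches and that at TRIOBP held 2. None of the motifs matched at BCL2L13 or in the stretch from the feature that overlapped an exon in BCR. The BCR promoter was as GC-rich as the ABL1 stretch (71.7%) and held 2 GC-box matches and 1 match to CCAAT, the NF-Y box. The feature near RPL3 held a CCAAT match.

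Depth and shared wells bear on all values below. The read pairs of a passing cell ranged from 345 to 15351 (median 2067.5). Intervals are exact 95% intervals unless named otherwise and cover counting error only. Cells 37 to 48 and 73 to 84 of a plate, and cells 73 to 84 and 85 to 96, shared peaks by position in the numbering. Of the features seen in exactly 2 of all cells, such pairs joined 18 of 30 in chr9 distal, 28 of 37 in chr22 proximal and 115 of 158 in chr22 distal, beside 70.8% in the whole series. The 71 passing cells of these wells were therefore left out in turn, which left 91, and the results are given with and without them.

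All 3 segments were sparse in features. Chr9 distal had 8.65 features per Mb of assembled DNA, chr22 proximal 7.12 and chr22 distal 14.2, against 26.998 in chr9 proximal and 28.2 in the other autosomes. Chr22 proximal was uneven. Its 1 Mb windows with under 40% GC (3.99 Mb) had 2.76 features and 9.27 read pairs per Mb. The 5 Mb before the cut on chromosome 22 had 8.02 features per Mb. The part of mapping in these values was not tested. The ratio to chr9 proximal was 0.320 for chr9 distal (interval 0.251 to 0.409, Poisson), 0.264 for chr22 proximal (0.212 to 0.328) and 0.525 for chr22 distal (0.473 to 0.584). All 3 intervals lay below 1, but they do not cover the spread between stretches of DNA. Windows of 1 Mb on chr9 proximal held from 0 to 63 features. Genes ran the other way, since the segments held 20.0, 8.32 and 12.7 protein-coding genes per Mb and chr9 proximal held 5.47. The same was seen on other gene-rich chromosomes. Chromosome 17 had 14.3 genes and 16.5 features per Mb, and chromosome 19 had 25.3 genes and 15.9 features.

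Read pairs in features, which also depend on the number of features, showed a wider gap. Plate 1 had 130 read pairs in chr9 distal, 161 in chr22 proximal and 770 in chr22 distal. Plate 2 had 108, 119 and 789 in the same order. The 3 segments took 0.434% of all read pairs of passing cells in features (interval 0.416 to 0.453%) with 1.59% of the assembled DNA. Per Mb there were 31.2 read pairs in chr9 distal (27.3 to 35.4), 24.03 in chr22 proximal (21.3 to 27.01) and 56.7 in chr22 distal (53.9 to 59.6), while chr9 proximal had 156.7 (154.4 to 159.0). Chr9 distal was 4.55 times below chr9 proximal in plate 1 and 5.597 times in plate 2, chr22 proximal 5.61 and 7.76 times, and chr22 distal 2.77 and 2.76 times. Without the paired wells the ratios to chr9 proximal were 0.178, 0.110 and 0.312, beside 0.199, 0.153 and 0.362 with them.

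**Figure D1:**
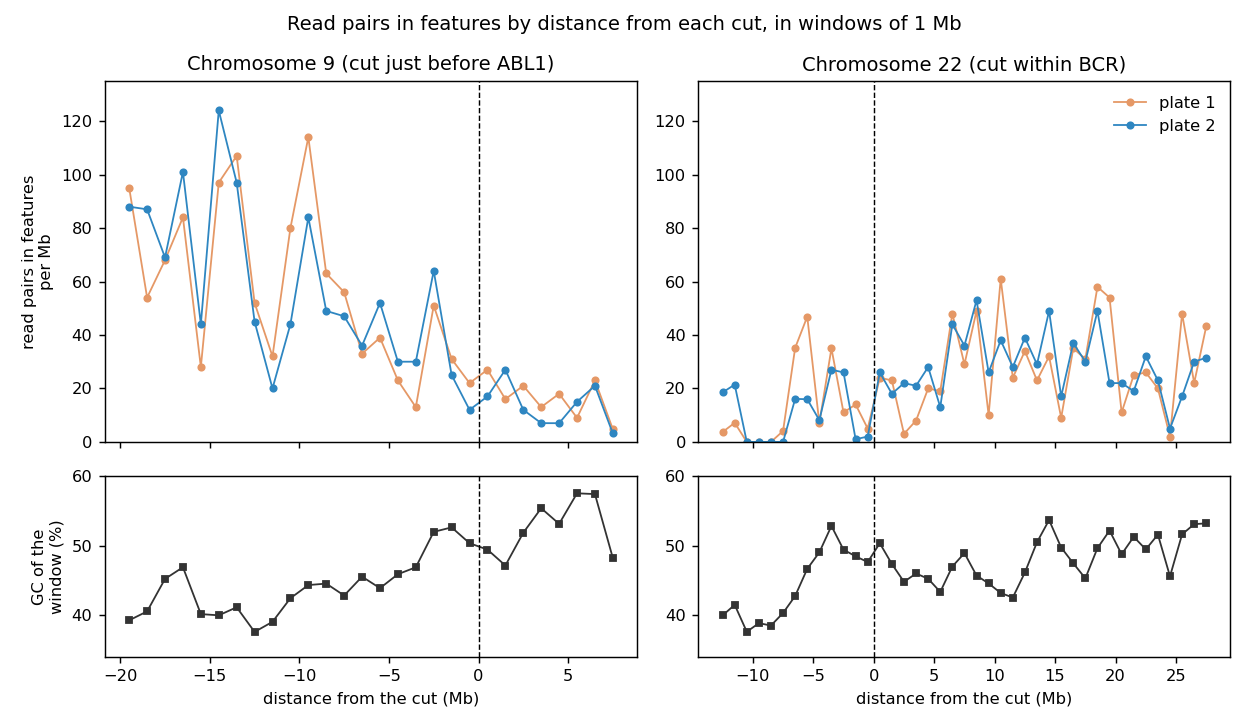
Read pairs in features per Mb of assembled DNA (top) and GC content (bottom) in windows of 1 Mb, by distance from the cut on chromosome 9 (left, from 20 Mb before it) and chromosome 22 (right). Points are plates. On chromosome 9 the windows in the 10 Mb before the cut range from 34 to 198 read pairs per Mb, and the first 2 after it have 44 and 43.

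The change across the cut on chromosome 9 depended on the flank and on the paired wells. The 2 Mb before it had 45 read pairs per Mb (36.2 to 55.3) and the 2 Mb after it, which hold ABL1, had 43.5 (34.8 to 53.7), so these intervals overlapped. Without the paired wells the value was higher after the cut, with 22.5 beside 11. Over 5 Mb on each side it was lower after the cut, with 60.2 (53.6 to 67.4) before and 33.02 (28.2 to 38.5) after, and with 21 and 13.2 without the paired wells. In these 5 Mb, 34 of 86 and 8 of 69 protein-coding genes had a feature over a start.

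The other side of the exchange looked different. The 2 Mb of chromosome 22 before the cut had 11 read pairs per Mb (6.89 to 16.7), from 19 read pairs in plate 1 and 3 in plate 2, and the 2 Mb after it had 45.5 (36.6 to 55.9). The stretch before the cut contains the immunoglobulin lambda locus, whose variable, joining and constant genes span chr22:22030934-22923034 and are rearranged in B cells. The locus held 2 features and 4 read pairs. In the order of the Philadelphia chromosome, 27.6 read pairs per Mb in the 5 Mb up to the cut on chromosome 22 were followed by 33.02 in the 5 Mb from ABL1 on. In the order of the derivative chromosome 9, 60.2 were followed by 38.6. Leaving out the paired wells gave 12.3 and 13.2 in the first order and 21 and 14.4 in the second. The 2 Mb before and after the cut on chromosome 22 then had 5.5 and 21.5.

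Promoter features, those that contain the start of a GENCODE transcript of a protein-coding gene, were fewer for the number of genes than in chr9 proximal. Of the protein-coding genes, 18 of 153 had one in chr9 distal (11.8%, 7.12 to 17.95%), 21 of 97 in chr22 proximal (21.6%, 13.9 to 31.2%) and 100 of 350 in chr22 distal (28.6%, 23.9 to 33.6%). In chr9 proximal 326 of 624 did (52.2%, 48.2 to 56.2%), and in the whole series 50.3% did. The share was 32.04% for chromosome 17 and 28.3% for chromosome 19 (25.97 to 30.6%). Among the features themselves, promoters had a larger share in the segments, with 17 of 66, 18 of 83 and 105 of 390, against 12.5% in chr9 proximal. Promoters made up 29.2% of features on chromosome 17 and 42.6% on chromosome 19. The other features lay in introns (18, 24 and 139), in exons (12, 19 and 62) and outside genes (19, 22 and 84).

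Promoter features were also seen in fewer cells on average. Occupancy, the percentage of feature and cell combinations with at least 1 read pair, was 2.76% in plate 1 and 2.98% in plate 2 at promoter features of chr9 distal, 2.28% and 2.32% in chr22 proximal, and 2.51% and 2.94% in chr22 distal. Chr9 proximal had 5.48% and 5.99%, above the upper bounds of all 3 segments in both plates. With the plates joined, the ratio to chr9 proximal was 0.501 (Katz interval 0.402 to 0.624), 0.401 (0.316 to 0.509) and 0.475 (0.432 to 0.523). Without the paired wells the ratios were 0.440, 0.342 and 0.471.

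Features away from promoters differed from chr9 proximal as well. Their occupancy was 1.27% (1.04 to 1.54%) in chr9 distal, 1.56% (1.33 to 1.81%) in chr22 proximal and 1.79% (1.67 to 1.91%) in chr22 distal, and 2.53% (2.48 to 2.58%) in chr9 proximal. The ratios were 0.503, 0.615 and 0.706, and without the paired wells 0.399, 0.398 and 0.563. A low value was not limited to the segments, since chromosome 19 had 1.69% away from promoters and chromosome 17 had 2.01%. The interval of chromosome 19 overlapped those of both chr22 segments and lay above that of chr9 distal. Chromosome 17 lay above all 3 segments. By plate, chromosome 19 had 1.94% in plate 1 and 1.42% in plate 2, beside 1.72% and 1.86% in chr22 distal. Where a feature was seen in a cell, 22.2%, 16.02% and 14.8% of the entries held more than 1 read pair in the 3 segments, beside 16.1% in chr9 proximal.

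**Figure D2:**
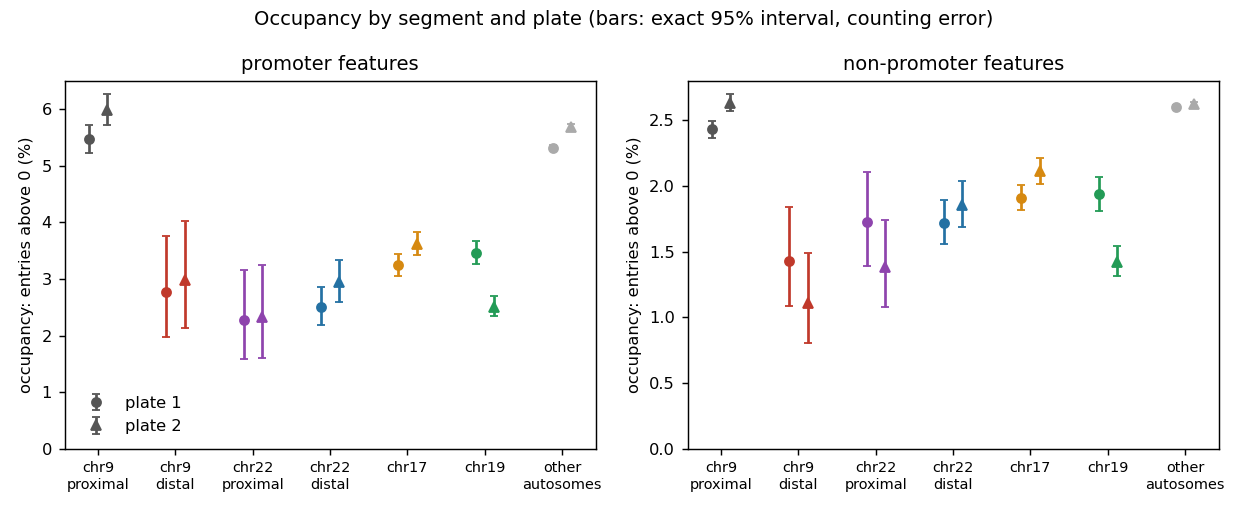
Occupancy (percentage of feature and passing-cell combinations with a read pair) of promoter features (left) and other features (right) by segment, with plate 1 as circles and plate 2 as triangles. Bars are exact 95% intervals. The 3 segments lie below chr9 proximal and the other autosomes in both panels.

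Chromosomes 17 and 19, which are gene-rich and GC-rich like the segments, came closer to them. Promoter occupancy was 3.43% (3.29 to 3.57%) on chromosome 17 and 3.00% (2.87 to 3.14%) on chromosome 19. The latter interval overlapped that of chr9 distal (2.28 to 3.56%), chr22 proximal (1.78 to 2.91%) and chr22 distal (2.48 to 2.98%). The plates differed here, as chromosome 19 had 3.47% (3.27 to 3.67%) in plate 1, above the upper bounds of chr22 proximal (3.17%) and chr22 distal (2.86%), and 2.51% (2.34 to 2.69%) in plate 2, where its interval overlapped those of all 3 segments. Against both chromosomes together, the ratio of promoter occupancy was 0.892 for chr9 distal (0.716 to 1.11), 0.714 for chr22 proximal (0.563 to 0.907) and 0.846 for chr22 distal (0.770 to 0.930). Read pairs per Mb remained further apart, with 79.9 on chromosome 17 and 72.8 on chromosome 19. These gave ratios of 0.405, 0.312 and 0.736.

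GC content moved with these values. The DNA was 52.7% GC in chr9 distal, 44.5% in chr22 proximal and 48.1% in chr22 distal, and 40.5% in chr9 proximal. Promoter occupancy in the other autosomes was 7.23% in 1 Mb windows with under 40% GC and 2.90% in windows with at least 52% GC. In these GC-richest windows, chr9 distal had 2.88% (2.18 to 3.72%), chr22 proximal 2.26% (1.42 to 3.41%) and chr22 distal 2.27% (1.81 to 2.82%). In windows of 48 to 52% GC, chr9 proximal itself had 2.51% (2.08 to 3.01%), beside 2.26%, 2.13% and 2.84% in the segments. The intervals of the segments overlapped that of chr9 proximal in this class. In windows of 44 to 48% GC they did not for chr22 distal, with 2.80% (2.35 to 3.30%) beside 4.71% (4.36 to 5.07%). The other autosomes had 3.55% (3.47 to 3.64%) at 48 to 52% GC. That lay above the intervals of chr22 proximal (1.45 to 3.00%) and chr22 distal (2.49 to 3.21%).

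Read pairs per Mb also fell with regional GC, and the other autosomes had 185.4 in windows with under 40% GC. At 52% GC and over, the intervals of promoter occupancy in the segments overlapped that of the other autosomes (2.77 to 3.03%). Read pairs per Mb did not meet there. In windows with at least 52% GC, chr9 distal had 29.01 (24.5 to 34.1) and chr22 distal 61.6 (52.8 to 71.5), below the other autosomes with 99.4 (96.6 to 102.3). Chr22 proximal had 69 (53.7 to 87.3) there, from 1 Mb of DNA. In windows of 48 to 52% GC, chr22 distal had 58.8 (54.7 to 63.2) and chr9 proximal 60.8 (53.1 to 69.3), while chr9 distal had 35.4 (25.9 to 47.2) and chr22 proximal 20.97 (16.2 to 26.7). The other autosomes had 114.7 (112.9 to 116.5) in this class. In the windows of at least 52% GC, 13 of 125 protein-coding genes of chr9 distal had a promoter feature (10.4%, 5.65 to 17.1%), while 25.3% did on chromosome 19 (21.1 to 29.9%) and 30.7% in the other autosomes (28.1 to 33.4%). The part of regional GC in the low counts of the segments was not tested.

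**Figure D3:**
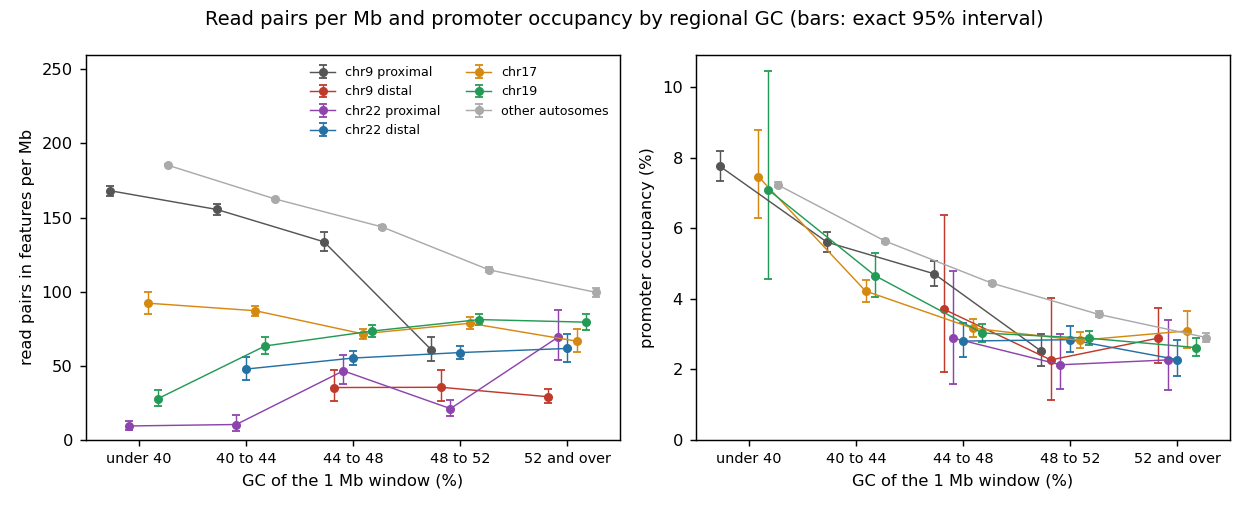
Read pairs in features per Mb (left) and promoter occupancy (right) by GC content of the 1 Mb window, for the segments, chr9 proximal, chromosomes 17 and 19 and the other autosomes. Bars are exact 95% intervals, and classes with under 1 Mb of DNA or under 2 promoter features are not drawn. Both measures fall with regional GC in chr9 proximal and the other autosomes. At 52% GC and over, promoter occupancy of the other autosomes meets that of the segments, while at 48 to 52% it lies above both chr22 segments. Read pairs per Mb of chr9 distal stay below the other autosomes in both classes.

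Promoter features had a median GC of 66.2% in chr9 distal, 65.9% in chr22 proximal, 63.9% in chr22 distal and 63.1% in chr9 proximal. At 60 to 65% GC, promoter features of chr22 distal had an occupancy of 2.86% (2.45 to 3.32%, 36 features) and those of chr9 proximal 6.30% (5.94 to 6.68%, 104 features). Chr9 distal and chr22 proximal had too few promoter features for such narrow classes. Over 60 to 75% GC, chr9 distal had 3.00% (15 features), chr22 proximal 2.38% (14 features), chr22 distal 2.80% (75 features) and chr9 proximal 6.01% (240 features).

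Away from promoters the features of the segments were richer in GC. Their median was 52.6%, 48.6% and 50.0% in the 3 segments and 40.4% in chr9 proximal. The GC box GGGCGG was found in 44.9% of them in chr9 distal (30.7 to 59.8%), 40.0% in chr22 proximal (28.04 to 52.9%) and 41.1% in chr22 distal (35.3 to 47.01%), against 14.5% in chr9 proximal and 15.6% of all such features in the series. At promoters it was common everywhere, with 88.2%, 94.4% and 92.4% in the segments, 90.6% in chr9 proximal and 83.8% in the series. The site of AP-1 (TGACTCA), the Jun and Fos dimer, was in 6 of 49, 6 of 65 and 58 of 285 features away from promoters, beside 15.46% in chr9 proximal. Both strands of the whole of each feature were searched, and the part of base composition in these shares was not tested.

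Most features were rare. The median feature was seen in 2 passing cells in chr9 distal and chr22 proximal and in 3 in chr22 distal, as in chr9 proximal. The recurrent features were thinner, since 0 of 66, 0 of 83 and 2 of 390 were seen in at least 10 passing cells, against 332 of 3082 (10.8%) in chr9 proximal. The share was 5.12% on chromosome 17, 3.44% on chromosome 19 and 11.4% in the whole series. Of the 9263 features of the series seen in at least 10 passing cells, 12.9% had a share of cells at least 2 times higher in plate 2 than in plate 1. The reverse held for 9.45%. Of the 2 in chr22 distal, the start of TRIOBP passed this fold toward plate 2.

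Single cells showed few of these features at a time. A passing cell of plate 1 had a median of 1 peak in chr9 distal (0 to 12), 1 in chr22 proximal (0 to 19) and 4 in chr22 distal (0 to 53). In plate 2 the medians were 0 (0 to 9), 1 (0 to 8) and 5 (0 to 61). No peak in chr9 distal was seen in 39 cells of plate 1 and 43 of plate 2, and none in chr22 proximal in 41 and 39. No passing cell lacked a peak in chr9 proximal. As a share of the peaks of a cell, chr22 distal ranged from 0 to 2.77% in plate 1 (median 0.258%) and from 0 to 1.06% in plate 2 (median 0.299%). The cell with most peaks gave 15.0% of the entries of chr22 proximal in plate 1 and less in the other segments and plates.

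ABL1, a tyrosine kinase found outside cell-surface receptors, had 3 features on its 174633 bp (chr9:130713043-130887675, plus strand). The one at its start, chr9:130712149-130713149, was seen in 3 of 83 cells of plate 1 and 4 of 79 of plate 2, with 9 read pairs. It was thus open in 7 of 162 cells (4.32%, 1.76 to 8.70%) and in 5 of the 91 cells outside the paired wells. Of all promoter features in the series, 46.6% were seen in more cells. The others lay in introns. That at chr9:130866106-130867106 was seen in 1 cell of each plate. That at chr9:130876479-130877479 was seen in 2 cells of plate 1, both in the paired wells.

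BCR, a signaling protein that regulates small GTPases and brings its oligomerization domain to the fusion, had 1 feature on its 138334 bp (chr22:23179704-23318037, plus strand). It overlapped an exon at chr22:23242649-23243649 and was seen in 1 cell of plate 1 and 2 of plate 2, and in 2 cells outside the paired wells. No feature lay at the start of BCR, and the nearest feature center was 63.4 kb away. At this depth a missing feature does not show that a promoter was closed.

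In chr9 distal, the feature at the start of NTNG2 (netrin-G2, a membrane-anchored protein of axon guidance) was seen in most cells. It lay at chr9:132240892-132241892 and was seen in 2 cells of plate 1 and 6 of plate 2, with 12 read pairs, and in 3 cells outside the paired wells. Beside NTNG2 and ABL1, the starts of TMEM141 (4 cells in plate 1 and 3 in plate 2), PHPT1, a phosphohistidine phosphatase (3 and 4), and TPRN, a gene of hereditary deafness (2 and 5), were each seen in 7 cells. The start of SLC2A6, a member of the glucose transporter family, was seen in 5 and 1. PHPT1 and TPRN fell to 1 cell each outside the paired wells. All 6 of these features were promoters.

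In chr22 proximal, the leading features were mostly not promoters of known genes. The pair at chr22:12100539-12101539 and chr22:12101002-12102002 overlap, so a read pair can be counted in both, and each was seen in 1 cell of plate 1 and 6 of plate 2. They lay outside annotated genes, over 3426 kb from the nearest protein-coding gene. A GC-rich feature outside genes at chr22:17171251-17172251 (69.1% GC) was seen in 2 and 4 cells. The start of BCL2L13, a mitochondrial protein of the BCL2 family, was seen in 3 cells of each plate, that of HDHD5 in 4 and 1, and an intron of the pseudogene SLC9B1P4 in 2 and 3.

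In chr22 distal, the most recurrent feature lay outside genes at chr22:39310613-39311613, 1.27 kb from RPL3, which encodes a ribosomal protein. It was seen in 6 of 83 cells of plate 1 and 5 of 79 of plate 2 (6.79%, 3.44 to 11.8%), and in 6 of 91 outside the paired wells. The start of TRIOBP, an actin-binding protein, was seen in 3 and 7 cells. The starts of RBX1, the RING subunit of cullin ubiquitin ligases (5 and 4), GTPBP1, a GTP-binding protein (3 and 6), and NDUFA6, a subunit of respiratory complex I (8 and 1), were each seen in 9 cells. Outside the paired wells RBX1 and NDUFA6 were each seen in 6 cells and GTPBP1 in 2. A feature 20.8 kb from MN1, a transcriptional coregulator and leukemia fusion partner, was seen in 3 and 6 cells. At 1 to 8 cells per plate, the plate intervals of each of these features overlapped.

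**Figure D4:**
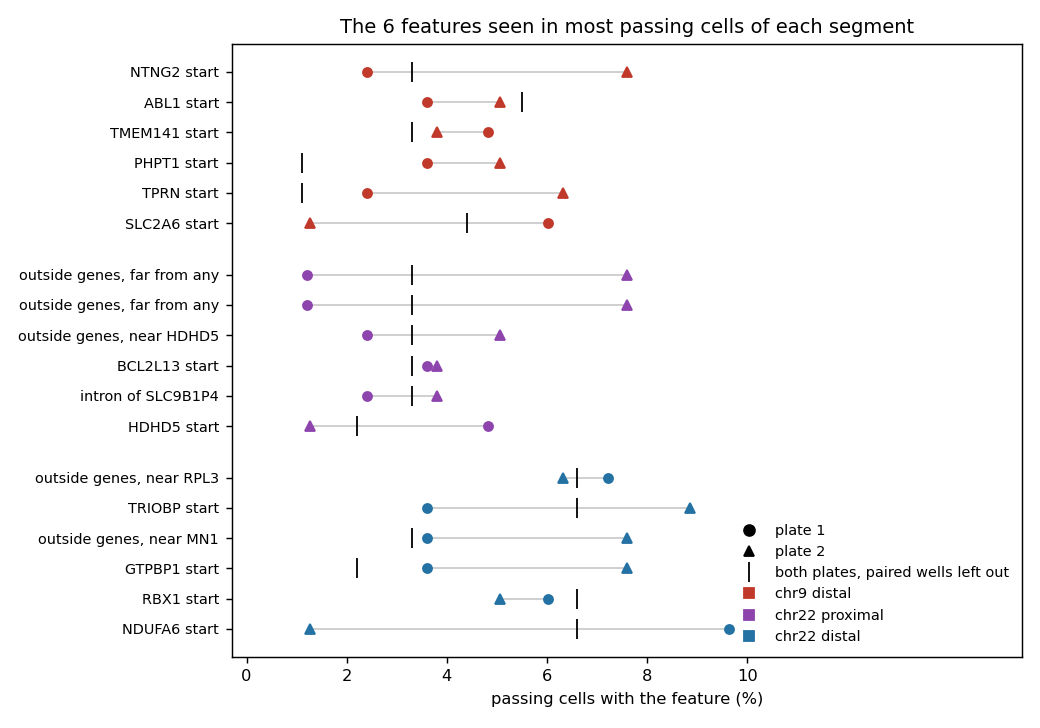
Percentage of passing cells with each of the 6 features seen in most passing cells of a segment, in plate 1 (circles), plate 2 (triangles) and over both plates without the paired wells (bars). Every feature lies below 10% in both plates, and the order of the plates differs between features.

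Of 132 genes in 9 lists of genes on these segments, 36 had a promoter feature (27.3%), beside 139 of all 600 protein-coding genes of the segments (23.2%). Of the 28 housekeeping genes, 10 had one, 8 of them among the 15 in chr22 distal and 1 among the 9 in chr9 distal. RBX1 and NDUFA6 led, followed by MCM5, a subunit of the replicative helicase (3 cells in plate 1 and 4 in plate 2), and SF3A1 of the spliceosome (3 and 3). RPL3 was seen in 3 cells and CDC45, another helicase factor, in 2. The ribosomal gene RPL7A, the surfeit genes SURF1, SURF2 and SURF4, and the tubulin gene TUBB4B, all in chr9 distal, had no promoter feature.

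Among 14 genes of kinase signaling, ABL1 and PI4KA, a lipid kinase that shares its feature with SNAP29 (1 cell in plate 1 and 3 in plate 2), had a promoter feature. CRKL, an adaptor and substrate of BCR-ABL1, and BCR had none. Of 11 chromatin regulators, HIRA, a chaperone of histone H3.3, was seen in 5 cells (3 and 2), BRD3, a reader of acetylated histones, in 3 of plate 1, and EHMT1, a histone H3 methyltransferase, in 2 of plate 2. Outside the paired wells HIRA and BRD3 were each seen in 1 cell and EHMT1 in 0. The starts of EP300 and SMARCB1 had no feature.

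Of 15 transcription factors, 4 had a promoter feature, all in chr22 distal. MRTFA, an actin-regulated coactivator, was seen in 2 cells of plate 1 and 5 of plate 2. SREBF2, the regulator of sterol synthesis, was seen in 1 and 5, and MAFF in 1 and 3. ATF4, a factor of the stress response, was seen in 2 and 4 cells, all of them in the paired wells. The 12 cancer genes had 5, the checkpoint kinase gene CHEK2 (2 and 5, sharing its feature with HSCB), the tumor suppressor NF2 (2 and 3), NOTCH1 (2 and 2, none outside the paired wells), MYH9 (2 and 2) and LZTR1 (0 and 3). TSC1, NUP214 and EWSR1 had none.

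The region deleted in the 22q11.2 deletion syndrome lies in chr22 proximal. Of its 39 genes in the list, 13 had a promoter feature, seen in 2 to 5 cells with a median of 4. DGCR6 and HIRA were seen in 5 cells each, DGCR6 in the paired wells throughout. ARVCF and TANGO2 share a feature (4 cells in plate 1 and 0 in plate 2), so these genes cannot be told apart. TBX1 and DGCR8 had no feature at a start.

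All 13 hematopoietic genes of the segments, among them RAC2, NCF4, CSF2RB and IL2RB, and all 7 APOBEC3 genes were without a promoter feature. Of all 600 protein-coding genes of the segments, 139 had one (23.2%), so most genes of the segments lacked one. Across the genome, of 8 hematopoietic markers (PTPRC, SPI1, GATA1, TAL1, CD34, KIT, CD33 and MPO), KIT alone had one, seen in 3 cells of plate 1 and 8 of plate 2, with 3 outside the paired wells. Of all protein-coding genes of the series, 50.3% had a promoter feature. Of 10 adhesion and mesenchymal genes, MYH9, PARVB (3 and 1), FBLN1 (1 and 2) and LIMK2 (2 and 0, both in the paired wells) had a feature, whereas LGALS1 and TIMP3 had none.

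**Figure D5:**
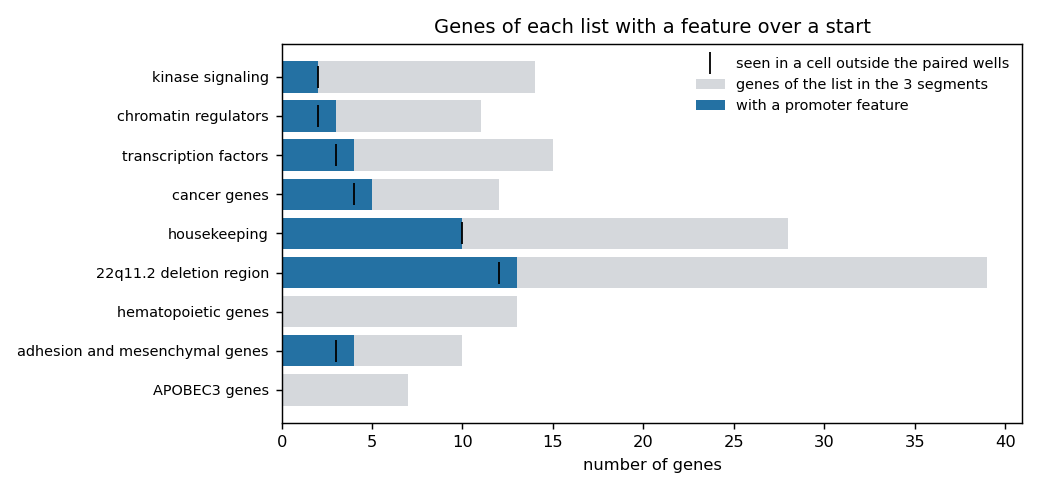
Number of genes of each list on the 3 segments (grey), with a feature over a start (blue) and with such a feature seen in a passing cell outside the paired wells (bars). The hematopoietic and APOBEC3 lists have none of 13 and none of 7 genes, and housekeeping genes have 10 of 28. Of all protein-coding genes of the segments, 23.2% have a feature over a start.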

How the data were processed

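The authors trimmed reads (fastp), aligned them to hg38 (bowtie2), and took out mitochondrial reads, those of low mapping quality and, per cell, duplicates. Peaks came from MACS2 (version not given in the sources used here) over the cells of both plates joined, and features were centered on the summits. Each deposited count is the unnormalized number of read pairs of a cell in a feature, from featureCounts (version 1.6.0), and a pair counts in each feature it overlaps. Every column was matched to a plate, and 0 were left over. GENCODE 44 gave genes and starts on the same build. Passing cells had more than 300 peaks, over peaks seen in more than 1 cell; segment values used all features. Named were the 6 features seen in most passing cells per segment (ties in genome order), all features within 1 kb of ABL1 or BCR, and promoter features of listed genes. The segments and lists were chosen with earlier results of these data known. No doublet caller was run. Functions for ratios and paired wells were tested on simulated data. Regional GC and chromosomes 17 and 19 were added after seeing the data. Scripts ran in Python 3.11.15 with pandas 2.3.3, SciPy 1.17.1, matplotlib 3.10.9 and NumPy 2.4.6.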

Additional observations from a re-analysis of the deposited data

How the results depend on the processing

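All ratios of the segments, to chr9 proximal or to the other references used, stayed below 1 under every alternative run. For promoter occupancy of chr9 distal, the interval included 1 against chromosomes 17 and 19 (0.716 to 1.11). It also did against windows of the other autosomes with at least 48% GC (0.643 to 1.03). Values are given in the order chr9 distal, chr22 proximal and chr22 distal. Without the paired wells the ratio of occupancy away from promoters was 0.399, 0.398 and 0.563, the share of read pairs was 0.0428% in chr22 proximal and 0.285% in chr22 distal, and their ratio of read pairs per Mb was 0.110 and 0.312. Against chromosomes 17 and 19 the ratio of promoter occupancy was 0.892, 0.714 and 0.846, that of features per Mb 0.532, 0.438 and 0.872, and that of read pairs per Mb 0.405, 0.312 and 0.736. Against windows of the other autosomes with at least 48% GC these were 0.815, 0.644 and 0.789 for promoter occupancy, 0.410 and 0.642 for features per Mb in the chr22 segments, and 0.274, 0.295 and 0.535 for read pairs per Mb. For chr22 distal against all other autosomes the last was 0.339. With features seen in at least 5 cells the ratio of features per Mb was 0.140, 0.0919 and 0.346, and with at least 10 cells it was 0.0246 in chr22 distal, while the other segments had none. Without overlapping features the share of read pairs was 0.0609% in chr9 distal and 0.367% in chr22 distal. For chr22 proximal, thinning to 600 read pairs gave a ratio of promoter occupancy of 0.550, and read pairs per Mb were 0.178 of chr9 proximal in plate 1 and 0.129 in plate 2. The cause of these shifts was not tested. No paired analysis was possible because each plate was 1 sample and no test was made. Depth limits single features, since a feature seen in 0 of the 91 cells outside the paired wells may still be in up to 3.97% of them.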
